A study of Mus musculus with 8 samples.

Results

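The interferon-stimulated genes described here are 43 mouse genes, listed by symbol, whose transcription rises when cells are exposed to interferon. Of the 43, 40 were measured on the arrays, of 12393 genes in all. Each was represented by the brightest of its probe sets that carry a single gene symbol, judged by the mean over the 8 arrays, and no filter on low values was applied. Ifi44 and Xaf1 have no listed probe set and the probe set of Isg15, the ubiquitin-like modifier, carries several symbols, so these 3 were not analysed here. The rule reads only the symbols, but the list was proposed with earlier results of these data known. For 37 of the 40 the signal lay above the background level of 4.01 (log2) on every array, and the exceptions were Gbp6, Mx1 and Mx2, which reached background on at least 1 array.

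RNA was profiled on Affymetrix arrays from 3 groups of sorted mouse bone marrow cells, all labelled strain C57/BL6 and 12 weeks of age. Normal LSK cells (lineage-negative, Sca1-positive, Kit-positive, the fraction rich in stem and multipotent progenitor cells; 3 arrays) are titled wild type and came from mice for which no transplantation is given. Leukaemia-initiating cells (LICs) were sorted on these markers and GFP from mice with retrovirally induced chronic myeloid leukaemia (CML), 14 days after bone marrow transplantation, either wild type (WT, 3 arrays) or lacking Ezh2 (Ezh2 KO, 2 arrays), the histone H3 lysine 27 methyltransferase of Polycomb repressive complex 2. The repeats are called biological, and p-values measure only the spread between them. How Ezh2 was deleted, what the retrovirus carried beside GFP, whether animals were pooled and how the recipients were conditioned is not stated in the labels. Both LIC groups therefore differ from LSK cells by transplantation, retroviral infection and leukaemia at once, and these cannot be told apart.

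Interferons are cytokines of antiviral defence. Type I interferons bind the receptor Ifnar1/Ifnar2, whose kinases are Jak1 and Tyk2. The signal reaches the nucleus through the factor ISGF3, which holds Stat2 and Irf9 and binds the interferon-stimulated response element (ISRE), while type II interferon (Ifng) acts at the gamma-activated site (GAS). The induced proteins bind or cleave viral RNA, block virus entry and assembly, attack intracellular vacuoles, supply the peptides of class I antigen presentation, or amplify and end the signal. Haematopoietic stem cells express a number of these genes without infection and leave quiescence when exposed to type I interferon, and Sca1, one of the markers of the sort, is itself encoded by an interferon-inducible gene, Ly6a (not analysed here).

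The elements through which these genes are read can be seen in their promoters. RefSeq promoter sequences (assembly GRCm38.p6, 250 bases before to 50 bases after the annotated start) matched 35 of the 43 symbols; those without an entry were Parp14, Mx1, Mx2, Ifi27l2a, Gbp6, Oas2, Usp18 and Iigp1. The ISRE core GAAANNGAAA, searched on both strands, was found in 17 of the 35 (48.6%), against 1079 of 27025 genes in the table (3.99%). The GAS core TTCNNNGAA, searched likewise, was found in 11 of the 35 (31.4%), against 9.55% of all genes, and 5 of the 35 held both. A match is a stretch of letters, not a site shown to be bound, and both cores are short enough to overlap each other, as in Bst2. The sequences below were chosen because their genes carry the results that follow: each is shown 5′ to 3′ on the strand of its gene, upstream of the start, with the core in capitals. Where the ISRE core lies on the opposite strand it reads TTTCNNTTTC; the GAS core reads the same on both. Ifit3 and Ifit1 each have the reversed ISRE core at 2 places, and in Irgm1 and Bst2 overlapping copies run together as a single stretch of capitals.
Ifit3 (ISRE, chr19:34583358-34583431, plus strand): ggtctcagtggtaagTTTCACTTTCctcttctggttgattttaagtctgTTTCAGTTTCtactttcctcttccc
Ifit1 (ISRE, chr19:34640770-34640828, plus strand): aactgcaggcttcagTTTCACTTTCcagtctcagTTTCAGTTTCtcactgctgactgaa
Gbp2 (ISRE, chr3:142620589-142620628, plus strand): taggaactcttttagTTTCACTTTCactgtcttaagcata
Cxcl10 (ISRE, chr5:92349078-92349117, minus strand): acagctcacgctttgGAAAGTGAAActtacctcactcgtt
Igtp (ISRE, chr11:58199507-58199546, plus strand): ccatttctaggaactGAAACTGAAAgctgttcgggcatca
Irgm1 (ISRE, chr11:48871421-48871465, minus strand): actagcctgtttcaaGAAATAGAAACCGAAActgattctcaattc
Bst2 (ISRE, chr8:71537572-71537617, minus strand): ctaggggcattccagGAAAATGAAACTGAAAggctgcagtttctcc
Irf1 (GAS, chr11:53769909-53769947, plus strand): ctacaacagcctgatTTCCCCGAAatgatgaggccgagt
Psmb8 (GAS, chr17:34198083-34198121, plus strand): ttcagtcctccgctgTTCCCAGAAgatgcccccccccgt

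The whole upstream window of Rsad2, which encodes the antiviral enzyme viperin, is shown for context because Rsad2 was among the members that differed most between arrays of a single group. Its ISRE core, in capitals, lies in the middle part of the window.
Rsad2 (chr12:26456453-26456702, minus strand): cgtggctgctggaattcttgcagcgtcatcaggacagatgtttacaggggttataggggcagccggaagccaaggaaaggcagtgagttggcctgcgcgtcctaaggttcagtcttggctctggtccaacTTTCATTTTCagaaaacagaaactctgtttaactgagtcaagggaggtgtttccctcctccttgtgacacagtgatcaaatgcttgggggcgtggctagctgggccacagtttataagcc

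**Figure D1:**
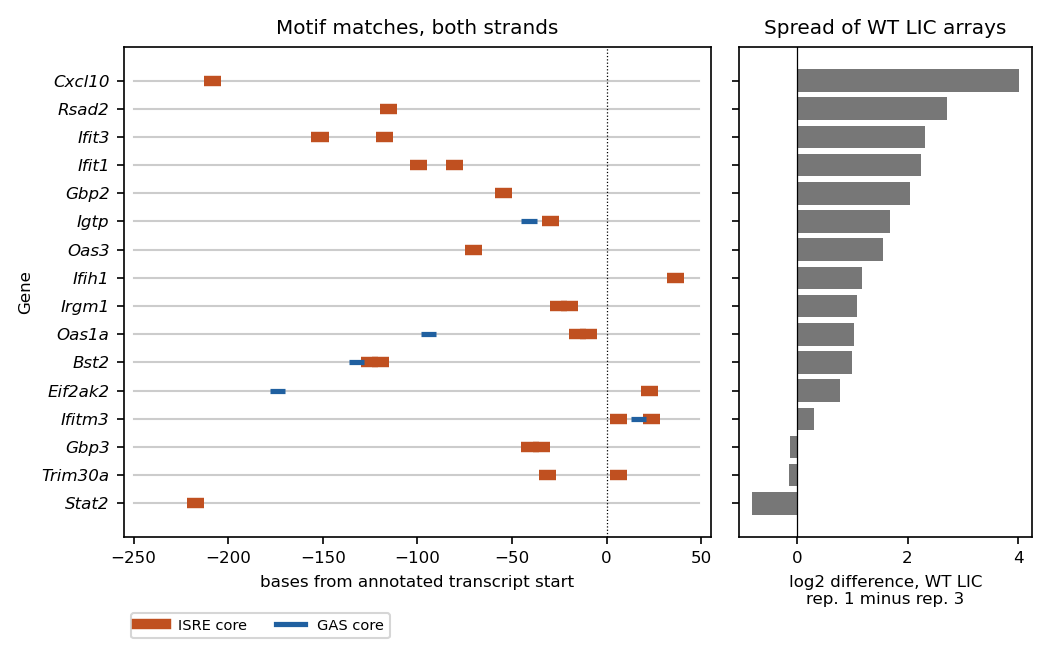
Positions of the ISRE core and of the GAS core relative to the annotated start (horizontal axis, in bases) in the promoters of the members with a match, for the 16 measured members with an ISRE match, and, at the right, the log2 difference between WT LIC repeats 1 and 3 (bars). ISRE matches lie on both sides of the start, and the bars run from -0.81 in Stat2 to 4.01 in Cxcl10.

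The group labels were checked first. Ezh2 was at 10.77, 10.95 and 11.07 in LSK cells, at 11.33, 11.44 and 11.26 in WT LICs and at 8.94 and 9.55 in Ezh2 KO LICs (log2 intensity, arrays in the order of their repeat numbers). The knockout differed from WT LICs by -2.10 (SE 0.21, adjusted p = 0.00985) in limma, and both knockout arrays lay below all others. Kit was well above background on all arrays, but in limma it was called lower in both LIC groups than in LSK cells. The differences were -1.19 (SE 0.14, adjusted p = 0.00886) in WT LICs and -0.78 (SE 0.16, adjusted p = 0.0455) in Ezh2 KO LICs. The WT LIC repeat 3 array stood apart from the other 2 WT LIC arrays in genes outside the list: Xist was at 4.35 against 10.68 and 11.06, and the summed intensity of the 6 measured erythroid markers was 179 against 6691 and 3984. Xist was at 12.45 to 12.69 in LSK cells and at 10.69 and 11.18 in Ezh2 KO LICs. The erythroid sum was 672 to 985 in LSK cells and 420 to 657 in Ezh2 KO LICs. In that sum WT LIC repeats 1 and 2 lay above the arrays of both other groups, and repeat 3 lay below them by less. Counts, medians and values of named members that WT LIC repeat 3 moved by over 1.5 times are given with and without it.

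The 40 members spread widely within groups, and in WT LICs most of that spread came with repeat 3. Between the 3 WT LIC arrays the median SD of a member was 0.53 on the log2 scale, against 0.23 for all genes, and 16 of the 40 had an SD above 0.68, the level that 10% of genes exceed. Without repeat 3 the median SD was 0.20 against 0.16 for all genes, and 7 of 40 members exceeded the corresponding level of 0.50, 5 of them GTPases. Between the 2 Ezh2 KO LIC arrays the median SD was 0.38 against 0.17, with 12 of 40 above the corresponding level, and between the 3 LSK arrays it was 0.28 against 0.23, with 7 of 40. The members moved together on single arrays. WT LIC repeat 3 was the lowest of its group for 29 of 40 members (72.5%, against 33.9% of all genes), WT LIC repeat 1 the highest for 27 of 40 (67.5%, against 30.5%), LSK repeat 3 the highest of its group for 27 of 40 (against 26.6%), and Ezh2 KO LIC repeat 1 exceeded repeat 2 for 32 of 40 (against 51.2%). Since these are differences between repeats of a group, no test of conditions applies to them.

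**Figure D2:**
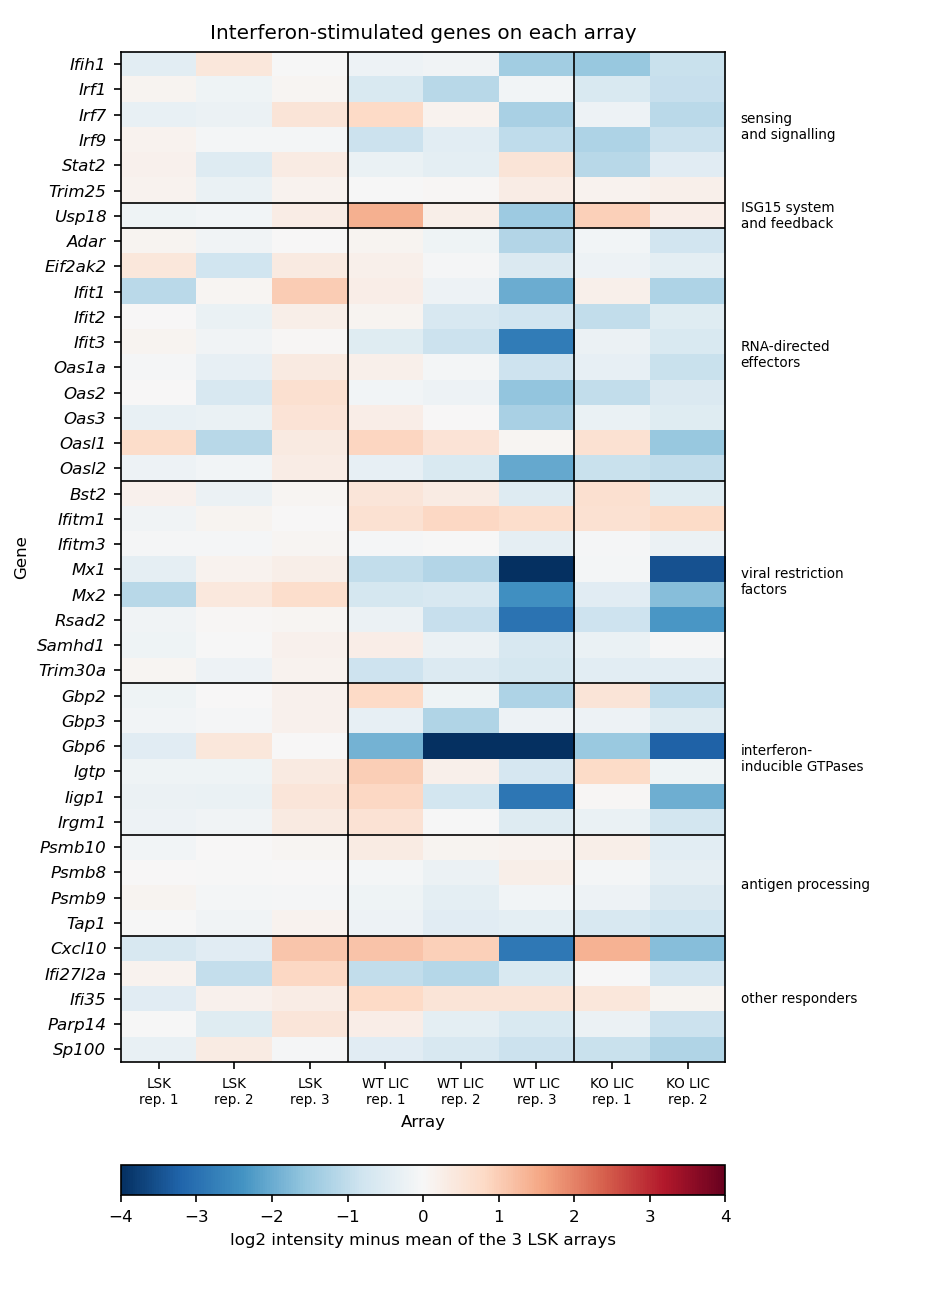
Heat map of the 40 measured members (rows, grouped by role) on the 8 arrays (columns); colour is the log2 intensity minus the gene's mean over the 3 LSK arrays, and colours saturate at 4 log2 units in either direction. The WT LIC repeat 3 column is the lowest of the WT LIC columns for 29 of the 40 genes, and the antigen processing genes change little from column to column.

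In size, WT LIC repeat 1 exceeded repeat 3 by a median of 0.96 over the members (all genes -0.05), with 19 of 40 members (47.5%) higher by more than 1 log2 unit against 6.04% of all genes. Repeat 2 exceeded repeat 3 by a median of 0.56, with 15 of 40 higher by more than 1 log2 unit (5.55% of all genes). Repeat 1 exceeded repeat 2 by a median of 0.26, with 33 of 40 higher but only 3 (7.5%) by more than 1 log2 unit, against 2.99% of all genes. The widest gaps, picked out after the values were seen, were in Cxcl10, a chemokine that draws T cells, with 4.01, in the GTPase Gbp6 with 3.73, and in Mx1 and Iigp1 with 3.71 each. A slightly dimmer probe set of Iigp1 had a wider gap, of 5.78. It differed by 1.09 between Ezh2 KO and WT LICs, where the brighter one differed by -0.02. Ezh2 KO LIC repeat 1 exceeded repeat 2 by a median of 0.39, with 10 of 40 (25%) higher by more than 1 log2 unit against 3.64% of all genes, led by Mx1 with 3.41 and Cxcl10 with 3.07. Within WT LICs the roles differed. All 10 RNA-directed effectors were lowest on repeat 3 and highest on repeat 1, with a median SD of 0.75. Of the 6 interferon-inducible GTPases 5 were lowest on repeat 3 and 5 highest on repeat 1, with a median SD of 0.93. Without repeat 3 the median SD was 0.20 for the effectors and 0.66 for the GTPases. The 4 antigen processing genes had a median SD of 0.13 and none was lowest on repeat 3.

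**Figure D3:**
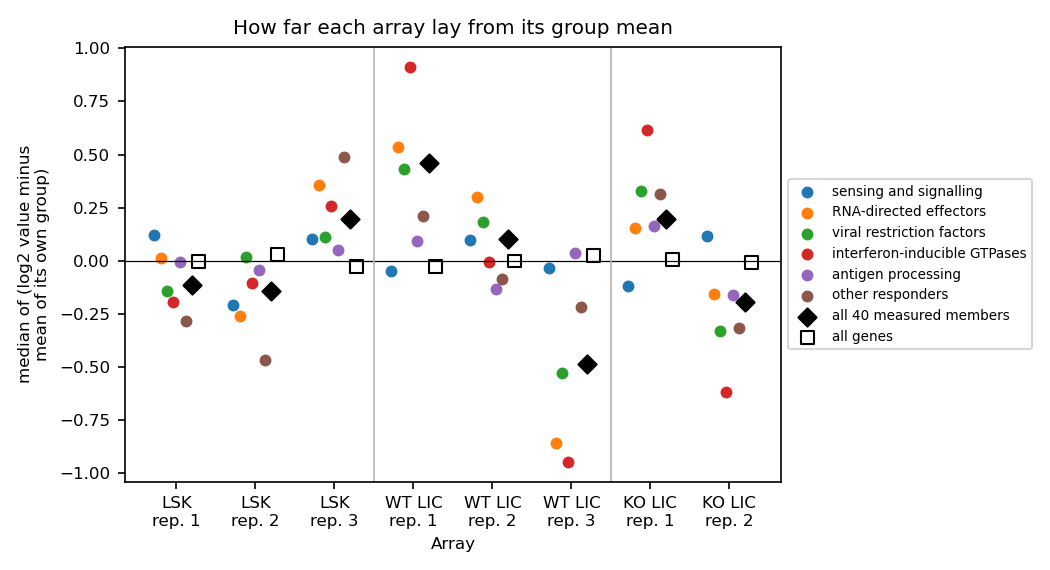
Median deviation from the group's own mean (vertical axis, log2 units) on each of the 8 arrays (horizontal axis) for the members of each role (coloured points), the 40 members (diamonds) and all 12393 genes (squares); Usp18, alone in its role, enters only the diamonds. The members' median lies at 0.46 on WT LIC repeat 1 and at -0.49 on WT LIC repeat 3, where the median over all genes is -0.02 and 0.03.

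The measured members with an ISRE core were not alike in this respect. Those whose ISRE sequences are printed above were all higher on WT LIC repeat 1 than on repeat 3, by 0.99 in Bst2 to 4.01 in Cxcl10. They do not stand for the members with a match as a whole. Over the 16 measured members with a match the median gap between WT LIC repeats 1 and 3 was 1.14, and it ranged from -0.81 in Stat2 to 4.01 in Cxcl10. A dimmer probe set of Stat2 had a gap of 0.59, of the opposite sign. The median gap was 0.24 over the 16 with a promoter but no match, and 2.30 over the 8 with no promoter sequence. By number, 10 of 16, 3 of 16 and 6 of 8 were higher on repeat 1 by more than 1 log2 unit. These values are a description and carry no test.

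Other values moved with the same arrays. In WT LICs the erythroid markers were highest on repeat 1 and lowest on repeat 3 (Klf1 at 10.78, 9.81 and 4.89), whereas Dntt, a lymphoid polymerase, was at 9.89, 9.58 and 12.14. Dntt was at 12.31 to 12.63 in LSK cells and at 11.98 and 11.92 in Ezh2 KO LICs. For Dntt it was WT LIC repeats 1 and 2 that lay below all other arrays. Several granulocyte precursor markers and Gzmb, given with their sums further below, were the lowest of WT LICs on repeat 3 as well, and others were not. The summed markers of monocytes (10 of 10 measured) were 2258, 1438 and 3235 on the WT LIC arrays, 2589.8 and 1775 on the Ezh2 KO LIC arrays and 4776 to 5849 on the LSK arrays. Those of plasmacytoid dendritic cells, the main makers of type I interferon (8 of 10 measured, Klk1 at background), were 3138 to 4435 in WT LICs, highest on repeat 3, 4395 to 4533 in Ezh2 KO LICs and 5358 to 6261 in LSK cells. This sum came mainly from Tcf4, Bcl11a and Irf8, the brightest of the 8 on every array. Ccr9 was at or under background on 2 arrays and Pacsin1 on 1. Ly6d was at 4.11 to 4.92 in WT LICs and at 7.99 and 7.94 in Ezh2 KO LICs. The sum is therefore a level of these transcripts, not of plasmacytoid dendritic cells as such. The part of these cell types in the spread of the members was not tested. In bulk samples fewer cells of a type and less RNA per cell cannot be told apart.

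Between WT LICs and LSK cells, 31 of the 40 members had the lower mean in WT LICs and 9 the higher, with a median difference of -0.30 on the log2 scale; of all genes 47.8% were lower, with a median of 0.02. In limma only 1 of the 40, Ifitm1, passed the test, and it rose; 3.42% of all genes were called, 1.27% as higher and 2.15% as lower. At an unadjusted p under 0.05 there were 9 members, 7 lower and 2 higher, against 20.6% of genes. The arrays of the groups did not overlap for 11 members on the lower side, against 13.2% of genes, and for 3 on the higher side (Ifitm1, Ifi35 and Psmb10), against 13.5%. The standard error of a member's difference was 0.35 at the median, against 0.21 for all genes. The median depended on single arrays: it was -0.05 without WT LIC repeat 3, with 22 members lower, -0.12 without LSK repeat 3, -0.48 without LSK repeat 2 and -0.62 without WT LIC repeat 1.

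Between Ezh2 KO and WT LICs no member passed the test in limma, 1 of 40 (Tap1) had an unadjusted p under 0.05, and 0.637% of all genes were called (0.589% higher and 0.0484% lower), 11.1% at the unadjusted level. Arrays did not overlap for 1 member on the higher side and 4 on the lower, against 13.2% and 16.6% of genes. Of the members 25 had the lower mean in the knockout and 15 the higher (56.7% of all genes were lower), and the median difference was -0.03 against -0.05 for all genes. Here too WT LIC repeat 3 mattered: without it the median was -0.41 and 33 members were lower. Without WT LIC repeat 1, 17 were lower and the median was 0.087. Without WT LIC repeat 2 it was 0.024, without Ezh2 KO LIC repeat 1 it was -0.35, and without Ezh2 KO LIC repeat 2 it was 0.067, with 16 members lower. Set against LSK cells, 34 of 40 members in the knockout LICs had the lower mean (52.8% of all genes), the median difference was -0.45 (all genes -0.02), and none passed the test where 3.47% of all genes did (1.61% higher and 1.86% lower). At an unadjusted p under 0.05 there were 8, 7 lower and 1 higher (19.2% of genes), 16 members did not overlap on the lower side, against 20.5% of genes, and 1 on the higher side, against 18.2%. The median was -0.21 without Ezh2 KO LIC repeat 2 and -0.76 without repeat 1. This comparison shares its arrays with both of the others.

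**Figure D4:**
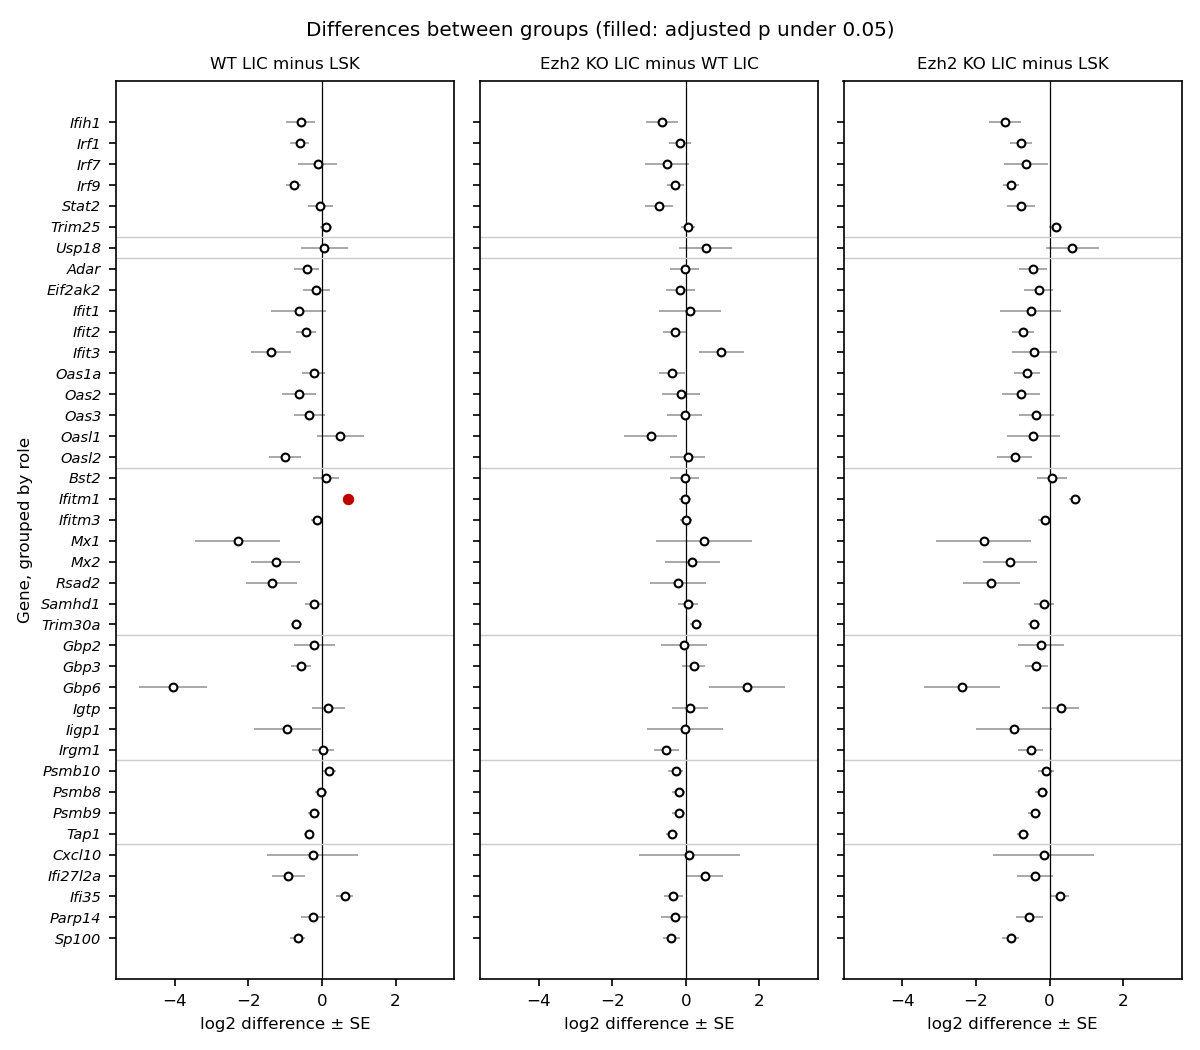
Log2 difference of the 40 members in the 3 comparisons (one panel each), with bars of 1 standard error from limma; members are grouped by role, and a filled point passed the test. Ifitm1 in WT LICs against LSK cells is the one filled point, and Gbp6 lies farthest from 0 in each comparison.

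Among genes that sense and transmit the signal (6 measured), none passed the test. WT LICs differed from LSK cells by a median of -0.35, the knockout differed from WT LICs by -0.40, and its median against LSK cells was -0.77. The first was -0.59 without WT LIC repeat 1, -0.23 without LSK repeat 3 and -0.25 without WT LIC repeat 3, and the second -0.24 without WT LIC repeat 1. Irf9, the DNA-binding subunit of ISGF3, was at 9.49, 9.27 and 9.26 in LSK cells, at 8.48, 8.90 and 8.32 in WT LICs and at 8.09 and 8.49 in Ezh2 KO LICs. Every LIC array lay below every LSK array, with a difference of -0.77 (SE 0.20, adjusted p = 0.0817) for WT LICs and -1.05 (SE 0.22, adjusted p = 0.0507) for Ezh2 KO LICs. Irf1, a transcription factor induced by Ifng whose promoter carries the GAS core printed above, was at 10.08, 9.79 and 10.04 in LSK cells, at 9.36, 8.85 and 9.88 in WT LICs and at 9.36 and 9.05 in Ezh2 KO LICs. Its WT LIC repeat 3 array overlapped LSK cells while both Ezh2 KO LIC arrays lay below them, and Ezh2 KO LICs differed from LSK cells by -0.77 (SE 0.29, adjusted p = 0.206). Ifih1, which encodes the RNA sensor MDA5, was at 8.99, 9.86 and 9.39 in LSK cells, at 9.21, 9.26 and 8.03 in WT LICs and at 7.88 and 8.51 in Ezh2 KO LICs. The knockout arrays were both under the LSK arrays, and the difference was -1.21 (SE 0.44, adjusted p = 0.182). Irf7, the regulator that amplifies type I interferon output, ran from 6.03 to 8.11 within WT LICs alone, which spans its whole range in the other groups. Stat2, a subunit of ISGF3, was at 7.76, 7.05 and 7.91 in LSK cells, at 7.30, 7.18 and 8.11 in WT LICs and at 6.45 and 7.14 in Ezh2 KO LICs. The WT LICs overlapped LSK cells, and the knockout had the lowest mean. Trim25, a ubiquitin ligase of RNA sensing, lay between 10.91 and 11.46 on all arrays. A dimmer probe set of Trim25 differed by 1.33 between WT LICs and LSK cells.

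The 10 RNA-directed effectors comprise the IFIT proteins, which bind viral RNA, the OAS family, which makes the messenger that activates RNase L, the kinase PKR (Eif2ak2) and the RNA editor Adar. None passed the test; 9 of 10 had the lower mean in WT LICs than in LSK cells (median -0.42), and 10 of 10 in Ezh2 KO LICs (median -0.48). Without WT LIC repeat 3 the first count was 5 of 10, with a median of 0.0043, so it rested on that array. That median was -0.21 without LSK repeat 3 and -0.69 without WT LIC repeat 1. In the knockout, 8 of 10 were lower without Ezh2 KO LIC repeat 2 (median -0.24), and the median was -0.74 without LSK repeat 2. Ifit3 was at 7.52, 7.27 and 7.48 in LSK cells, at 6.94, 6.55 and 4.62 in WT LICs and at 7.20 and 6.80 in Ezh2 KO LICs. All LIC arrays lay below the LSK arrays, WT LIC repeat 3 by the most, and WT LICs differed by -1.38 (SE 0.55, adjusted p = 0.212). Without that array the difference was -0.68 (adjusted p = 0.122). Oasl2 was at 9.25, 9.33 and 9.75 in LSK cells, at 9.11, 8.83 and 7.38 in WT LICs and at 8.55 and 8.45 in Ezh2 KO LICs. It too was lower on every LIC array, with a difference in WT LICs of -1.003 (SE 0.42, adjusted p = 0.239), and of -0.47 (adjusted p = 0.247) without WT LIC repeat 3. Ifit2 was at 8.63, 8.35 and 8.87 in LSK cells, at 8.73, 7.99 and 7.85 in WT LICs and at 7.65 and 8.14 in Ezh2 KO LICs. Ezh2 KO LICs, both under the LSK range, differed by -0.72 (SE 0.31, adjusted p = 0.256), and by -0.48 without repeat 1. Ifit1, with the ISRE cores shown above, spread widely even in normal cells, at 7.42, 8.58 and 9.52 in LSK cells, at 8.78, 8.31 and 6.53 in WT LICs and at 8.72 and 7.26 in Ezh2 KO LICs. No group of Ifit1 values stood clear of another. In 6 of the 10 effectors, Oas1a and Oas3 among them, repeat 3 was lowest in WT LICs and highest in LSK cells, for Oas3 at 7.39 and 9.24.

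**Figure D5:**
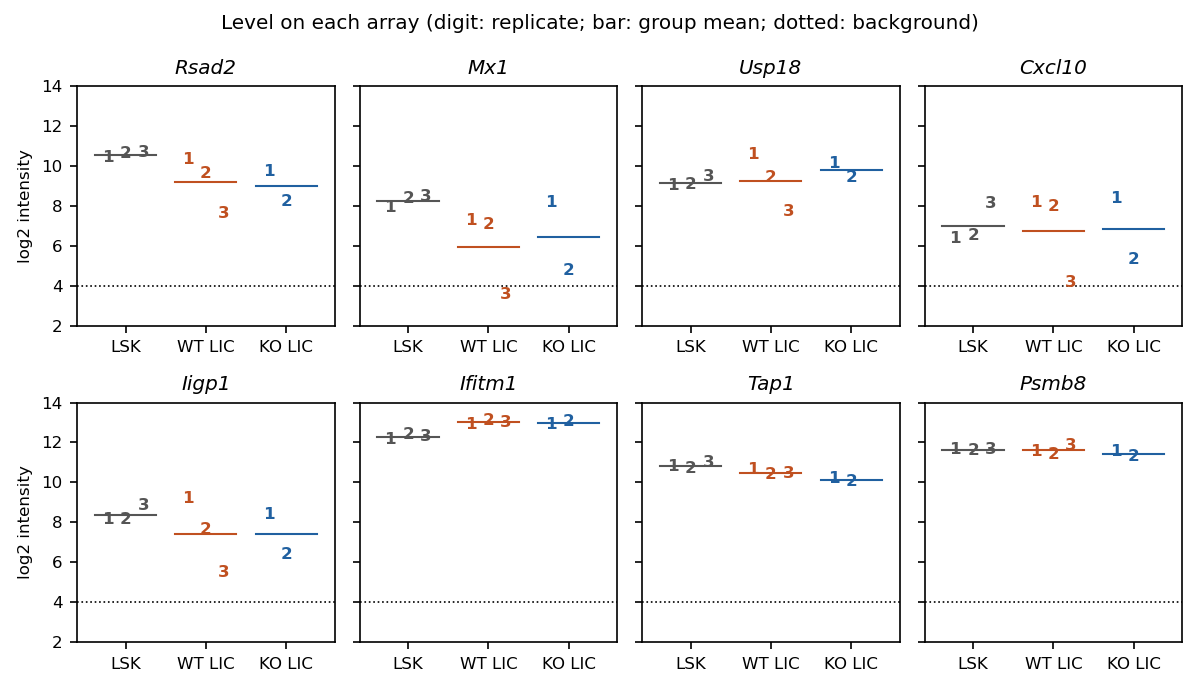
Log2 intensity on each of the 8 arrays of 8 members chosen after their values were seen (digits give the repeat number, bars the group mean, the dotted line background). Ifitm1 separates LSK cells (12.14 to 12.41) from all LIC arrays (12.90 to 13.12), whereas members such as Rsad2 spread from 7.62 to 10.34 within WT LICs.

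Usp18, the protease that removes Isg15 from proteins and damps the type I receptor, was the measured member of the Isg15 system. It was at 8.999, 9.06 and 9.45 in LSK cells, at 10.58, 9.42 and 7.71 in WT LICs and at 10.12 and 9.45 in Ezh2 KO LICs. The WT LIC arrays lay both above and below the LSK arrays. In the knockout, 1 array lay above the LSK range and the other at its upper end. The difference of Ezh2 KO LICs from LSK cells was 0.61 (SE 0.72, adjusted p = 0.707), with 0.28 without the first and 0.95 without the second.

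Ifitm1 stood out among the 8 viral restriction factors, proteins that stop viruses at entry, replication or release. It encodes a membrane protein that hinders the fusion of virus with host membranes, and was at 12.14, 12.41 and 12.32 in LSK cells, at 12.91, 13.12 and 12.99 in WT LICs and at 12.90 and 13.06 in Ezh2 KO LICs. All 5 LIC arrays lay above all LSK arrays. WT LICs were 1.65-fold higher than LSK cells, a log2 difference of 0.72 (SE 0.14, adjusted p = 0.0385), and Ezh2 KO LICs differed by 0.70 (SE 0.16, adjusted p = 0.057). Between Ezh2 KO and WT LICs the difference was -0.02. The call for WT LICs was lost when any single LSK or WT LIC array was left out, with differences of 0.64 to 0.78 and adjusted p values of 0.0576 to 0.129. Neither core was found in the promoter of Ifitm1. Its neighbour Ifitm3 kept between 12.43 and 12.87 on all arrays.

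Of the 8 restriction factors, 6 had the lower mean in each LIC group than in LSK cells. Trim30a, a regulator of inflammatory and antiviral signalling, was at 11.37, 11.09 and 11.43 in LSK cells, at 10.45, 10.74 and 10.60 in WT LICs and at 10.88 and 10.87 in Ezh2 KO LICs. Every LIC array was under the LSK arrays, with differences of -0.70 (SE 0.15, adjusted p = 0.0528) for WT LICs and -0.42 (SE 0.17, adjusted p = 0.227) for Ezh2 KO LICs, short of the threshold. Rsad2, whose upstream window is printed above, was at 10.44, 10.62 and 10.66 in LSK cells, at 10.34, 9.64 and 7.62 in WT LICs and at 9.74 and 8.25 in Ezh2 KO LICs. LSK cells were tight and LICs were not. All LIC arrays lay below, by little on WT LIC repeat 1 and by far on WT LIC repeat 3. The difference of Ezh2 KO LICs from LSK cells was -1.58 (SE 0.77, adjusted p = 0.321), and -0.83 without Ezh2 KO LIC repeat 2. Mx1, a dynamin-like GTPase that traps incoming virus and is defective in most laboratory mouse strains, was at 7.90, 8.38 and 8.47 in LSK cells, at 7.26, 7.09 and 3.55 in WT LICs and at 8.17 and 4.76 in Ezh2 KO LICs. WT LIC repeat 3 was under background. Bst2 (tetherin, which holds budding virus at the membrane) was at 9.84, 9.41 and 9.74 in LSK cells, at 10.15, 9.99 and 9.16 in WT LICs and at 10.30 and 9.17 in Ezh2 KO LICs. Its groups overlapped.

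The 6 interferon-inducible GTPases, guanylate-binding and immunity-related proteins that attack the vacuoles of intracellular microbes, included the widest difference of any member. Gbp6 was at 8.21, 9.10 and 8.68 in LSK cells, at 6.77, 4.07 and 3.03 in WT LICs and at 7.17 and 5.42 in Ezh2 KO LICs. All LSK arrays lay above all LIC arrays, and WT LIC repeat 3 was under background. WT LICs differed from LSK cells by -4.04 (SE 0.92, adjusted p = 0.0606), which missed the threshold; without WT LIC repeat 1 it was called, at -5.11 (adjusted p = 0.0207). Gbp3 was at 9.22, 9.27 and 9.49 in LSK cells, at 9.01, 8.12 and 9.13 in WT LICs and at 9.13 and 8.80 in Ezh2 KO LICs. WT LICs differed from LSK cells by -0.57 (SE 0.27, adjusted p = 0.295), and by -0.26 without WT LIC repeat 2. Irgm1, a regulator of the immunity-related GTPases, was at 8.56, 8.61 and 9.11 in LSK cells, at 9.35, 8.74 and 8.26 in WT LICs and at 8.49 and 8.01 in Ezh2 KO LICs. WT LICs straddled the LSK range, and Ezh2 KO LICs differed from WT LICs by -0.53 (SE 0.34, adjusted p = 0.6), by -0.25 without WT LIC repeat 1 and by -0.30 without Ezh2 KO LIC repeat 2. Gbp2, Igtp and Iigp1, like Gbp6 and Irgm1, shared an order of arrays in LICs, highest on repeat 1 of either genotype and lowest on WT LIC repeat 3 and Ezh2 KO LIC repeat 2. Igtp, for example, was at 9.89, 9.91 and 10.42 in LSK cells, at 11.07, 10.28 and 9.39 in WT LICs and at 10.83 and 9.91 in Ezh2 KO LICs.

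The 4 antigen processing genes had the narrowest spread. Tap1, a subunit of the transporter that carries peptides into the endoplasmic reticulum, was at 10.81, 10.70 and 10.99 in LSK cells, at 10.63, 10.39 and 10.45 in WT LICs and at 10.19 and 10.03 in Ezh2 KO LICs. The groups were ordered without overlap, LSK cells above WT LICs above Ezh2 KO LICs, though none of the steps passed the test. They were -0.35 (SE 0.14, adjusted p = 0.227) for WT LICs against LSK cells, -0.38 (SE 0.16, adjusted p = 0.446) for Ezh2 KO against WT LICs, and -0.72 (SE 0.16, adjusted p = 0.0568) for Ezh2 KO LICs against LSK cells. A dimmer Tap1 probe set, above background, differed by -0.06 and 0.17 in the first 2 of these. Psmb9, a catalytic subunit of the immunoproteasome, was at 11.11, 10.94 and 10.96 in LSK cells, at 10.84, 10.63 and 10.90 in WT LICs and at 10.80 and 10.42 in Ezh2 KO LICs. Its LIC arrays were all below LSK cells, and Ezh2 KO LICs differed by -0.40 (SE 0.17, adjusted p = 0.271), and by -0.21 without repeat 2. Psmb10, another such subunit, was at 10.84, 10.99 and 11.05 in LSK cells, at 11.28, 11.06 and 11.09 in WT LICs and at 11.19 and 10.55 in Ezh2 KO LICs. Ezh2 KO LICs differed from WT LICs by -0.28 (SE 0.21, adjusted p = 0.667), and this turned to 0.045 without Ezh2 KO LIC repeat 2 and was -0.60 without repeat 1. Psmb8, the remaining catalytic subunit, with the GAS core printed above, was at 11.64, 11.60 and 11.64 in LSK cells, at 11.54, 11.40 and 11.87 in WT LICs and at 11.55 and 11.28 in Ezh2 KO LICs. The WT LIC values overlapped both other groups.

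Of the 7 other responders 5 were measured, and none passed the test. Sp100, a component of PML nuclear bodies, was at 9.31, 9.94 and 9.54 in LSK cells, at 9.15, 8.95 and 8.72 in WT LICs and at 8.70 and 8.38 in Ezh2 KO LICs. It was lower on all LIC arrays, with -0.66 (SE 0.21, adjusted p = 0.135) for WT LICs and -1.06 (SE 0.23, adjusted p = 0.0564) for Ezh2 KO LICs. Ifi35 was one of the few with the higher mean in WT LICs, at 7.21, 7.83 and 7.97 in LSK cells, at 8.47, 8.20 and 8.19 in WT LICs and at 8.13 and 7.77 in Ezh2 KO LICs. The difference was 0.62 (SE 0.23, adjusted p = 0.187), and 0.39 without LSK repeat 1. Ifi27l2a was at 9.55, 8.48 and 10.25 in LSK cells, at 8.43, 8.29 and 8.82 in WT LICs and at 9.41 and 8.66 in Ezh2 KO LICs. WT LICs differed from LSK cells by -0.91 (SE 0.44, adjusted p = 0.298), with the LSK arrays themselves wide apart: it was -1.39 without LSK repeat 2 and -0.50 without LSK repeat 3. Cxcl10 was at 6.37, 6.54 and 8.10 in LSK cells, at 8.16, 7.95 and 4.15 in WT LICs and at 8.38 and 5.31 in Ezh2 KO LICs. Its lowest and one of its highest values were both from WT LICs.

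The genes around the members gave few calls. Of the 14 interferon genes listed 8 were measured, and 7 of them, Ifnb1 and Ifng among them, were at or under background on all 8 arrays. The highest value of the remaining gene, Ifna1, was 4.36, and none passed the test. None of 8 receptors and proximal kinases, 7 STAT and IRF factors outside the members, 8 negative regulators, 12 nucleic acid sensors and adaptors or 7 further class I presentation genes passed in any of the 3 comparisons. At an unadjusted p under 0.05, over the 3 comparisons in the order above, the receptors had 3, 2 and 5, the STAT and IRF factors 3, 1 and 1, the negative regulators 2, 1 and 3, the sensors 3, 2 and 2, the class I genes 0, 0 and 1 and the interferon genes none. The shares of all genes at that level were 20.6%, 11.1% and 19.2%. Ifngr1, a chain of the type II receptor, was at 8.69, 8.94 and 8.91 in LSK cells, at 8.75, 8.39 and 7.89 in WT LICs and at 7.97 and 7.21 in Ezh2 KO LICs. Every knockout array lay below every LSK array, with -1.26 (SE 0.31, adjusted p = 0.0725). Ifnar2, a chain of the type I receptor, was at 9.17, 9.31 and 9.45 in LSK cells, at 9.16, 8.46 and 9.18 in WT LICs and at 8.47 and 8.23 in Ezh2 KO LICs. The difference was -0.96 (SE 0.25, adjusted p = 0.0844) for Ezh2 KO LICs against LSK cells. Stat3 differed by -0.61 (SE 0.17, adjusted p = 0.0964) between WT LICs and LSK cells. Irf8, a factor of the monocyte and dendritic lineages, was at 9.87, 10.00 and 9.97 in LSK cells, at 8.48, 7.30 and 9.48 in WT LICs and at 9.06 and 8.59 in Ezh2 KO LICs. It differed by -1.53 (SE 0.49, adjusted p = 0.137) between WT LICs and LSK cells, and -2.05 (adjusted p = 0.0254) without WT LIC repeat 3 and -0.97 without WT LIC repeat 2. Cish, a feedback inhibitor of cytokine receptors, differed from LSK cells by 1.18 (SE 0.33, adjusted p = 0.0981) in WT LICs (1.55, adjusted p = 0.0395, without WT LIC repeat 1) and 1.56 (SE 0.37, adjusted p = 0.0666) in Ezh2 KO LICs. Trim24 differed by -0.96 (SE 0.23, adjusted p = 0.0688) and Ikbke, a kinase of RNA sensing, by -1.70 (SE 0.41, adjusted p = 0.0712) between Ezh2 KO LICs and LSK cells. Mavs, the mitochondrial adaptor of the RNA sensors, was at 6.29, 6.29 and 6.36 in LSK cells and at 6.80, 6.61 and 7.02 in WT LICs. In Ezh2 KO LICs it was at 6.10 and 6.17. Mavs differed by -0.68 (SE 0.16, adjusted p = 0.179) between Ezh2 KO and WT LICs. WT LICs differed from LSK cells by 0.49 (SE 0.15, adjusted p = 0.114), and Ezh2 KO LICs by -0.18 (SE 0.16, adjusted p = 0.61). Tap2, the partner of Tap1, differed by -0.97 (SE 0.27, adjusted p = 0.102) and H2-K1, a class I heavy chain, by -0.31 (SE 0.14, adjusted p = 0.288) between Ezh2 KO LICs and LSK cells.

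A further list of 50 interferon-stimulated genes outside the members, of which 36 were measured, held the remaining calls: 2 genes rose in WT LICs relative to LSK cells, and 1 rose and 2 fell in Ezh2 KO LICs relative to the same cells (3.42% and 3.47% of all genes were called). Between Ezh2 KO and WT LICs none was called in limma, and 2 of 36 had an unadjusted p under 0.05, against 11.1% of genes. Slfn2, a schlafen protein that sustains immune cell quiescence, was at 6.72, 7.16 and 7.29 in LSK cells, at 8.85, 9.88 and 8.58 in WT LICs and at 9.34 and 9.28 in Ezh2 KO LICs. It rose in both LIC groups, by 2.04 (SE 0.34, adjusted p = 0.0242) in WT LICs and 2.25 (SE 0.38, adjusted p = 0.0266) in Ezh2 KO LICs, with all LIC arrays above all LSK arrays. Ifi30, a lysosomal thiol reductase of antigen processing, was at 7.74, 7.76 and 8.16 in LSK cells, at 10.69, 10.27 and 9.27 in WT LICs and at 9.58 and 9.10 in Ezh2 KO LICs. It rose in WT LICs by 2.19 (SE 0.36, adjusted p = 0.0236). Tor3a, an interferon-inducible ATPase of the endoplasmic reticulum, was at 8.57, 8.14 and 8.86 in LSK cells, at 8.06, 8.23 and 8.64 in WT LICs and at 7.19 and 6.31 in Ezh2 KO LICs. It fell in Ezh2 KO LICs relative to LSK cells, with a difference of -1.77 (SE 0.33, adjusted p = 0.0354). Sp110, a nuclear body protein, was at 6.47, 6.30 and 6.27 in LSK cells, at 5.83, 5.55 and 5.86 in WT LICs and at 5.48 and 5.31 in Ezh2 KO LICs. It fell in the same comparison, with -0.95 (SE 0.16, adjusted p = 0.0285). These calls depended on single arrays and, for Sp110, on the prior and the probe sets: its adjusted p was 0.104 with a trended robust prior and 0.235 with the mean of all probe sets. Fitted with the compared groups alone, Tor3a (0.0664) and Sp110 (0.0524) were not called. Ifi30 and Sp110 lost theirs without any LSK array, as did Slfn2 and Tor3a, with adjusted p values of 0.0503 to 0.0939. Slfn2 and Ifi30 also lost theirs in WT LICs without WT LIC repeat 1 (0.063 and 0.0614), and Ifi30 without WT LIC repeat 2 (0.0817). Tor3a lost its call without Ezh2 KO LIC repeat 2 (0.157). Slfn2 (0.121 each) and Sp110 (0.0966 and 0.144) lost theirs in the knockout without either Ezh2 KO LIC array. The median of this list was -0.18 in WT LICs and -0.33 in Ezh2 KO LICs against LSK cells.

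Summed intensities of markers of the stem cells themselves and of other cells that a sort can carry over are given beside these results. Summed stem cell markers (7 of 9 measured, Mecom at background) ran from 12137 to 12728 in LSK cells, 7236 to 8344 in WT LICs and 8019 to 10053 in Ezh2 KO LICs. Granulocyte precursor markers (9 of 10) ran from 13126 to 14239, 15737 to 18083 and 9257 to 16117 in the same order. This sum came mainly from Mpo, Ctsg and Prtn3, the brightest of these markers on every array. Within WT LICs, S100a8 (9.37, 9.42 and 6.96), S100a9, Camp, Ltf and Ngp were lowest on repeat 3. Elane, Mpo, Prtn3 and Ctsg were lowest on repeat 2. In Ezh2 KO LICs all of these but Ltf were lower on repeat 2, S100a8 at 9.61 and 7.27. T and NK cell markers (9 of 10, with Cd3g, Ncr1 and Il2rb at background) ran from 1945 to 3234, 4306 to 5097 and 3541 to 4016. The T and NK cell sum came mainly from Nkg7, the brightest of these markers on every array, at 10.85 to 12.12 (log2). Gzmb was at 4.89, 4.82 and 3.62 in LSK cells and at 9.56, 9.13 and 5.48 in WT LICs. In Ezh2 KO LICs it was at 6.67 and 7.01. WT LICs differed from LSK cells in Gzmb by 3.61 (limma, SE 1.00, adjusted p = 0.0981). Gzma was under background in LSK cells, at 5.04, 3.43 and 2.24 in WT LICs and at 7.15 and 6.57 in Ezh2 KO LICs. It was called higher in Ezh2 KO LICs than in LSK cells, by 4.32 (limma, SE 0.70, adjusted p = 0.0249). Cd3e and Cd8a were at or under background on 7 of the 8 arrays, and Cd3d on 4. B cell precursor markers (7 of 8, Pax5 at background) ran from 832 to 1201, 449 to 881 and 4619 to 7472, and antibody-secreting cell markers (7 of 8) from 3452 to 4862, 1241 to 1521 and 1435 to 1889. Their part in the members' differences was not tested.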

How the data were processed

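The deposited values of 22690 probe sets on 8 arrays were linear intensity values, made by the authors with RMA per the submitters' processing notes, which give no version; no later step is stated. The rule and design took the table for log2, so log2 was computed here, with no pseudocount. Per the labels' protocols RNA was amplified before biotin labelling. Cells had been sorted in 2 rounds for each sample. Each of 12393 genes was represented by its brightest probe set with 1 symbol. Such probe sets numbered 20380, while 691 had several symbols and 1555 were not listed; 64 controls were left out. Background, 4.01, was the mean of the brightest of 27 bacterial control probe sets without spike-in.

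One model of the 3 groups was fitted with limma 3.58.1 in R 4.3.3 (lmFit, eBayes; 5 residual degrees of freedom; 2-sided; Benjamini-Hochberg over 12393 genes; called at an adjusted p under 0.05). The code was tested on simulated data. Exact permutation tests were not used, since the smallest p these group sizes allow is 0.1. The precision is limited by the number of arrays. Brightness was compared within a probe set, not between genes.

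The members and gene lists were chosen with earlier results of these data known. Values are given for called members and for the 3 members of each role with the smallest p. From each pathway list, called genes or otherwise up to 2 with the smallest p are named. Mx1, Mx2, Cxcl10, Iigp1, Igtp, Gbp2, Irf7, Stat2, Trim25, Ifit1, Oas1a, Oas3, Ifitm3, Bst2, Psmb8, Xist, Klf1, Dntt and Kit were chosen after their values were seen. So were the single markers named beside the summed intensities. The labels give no pairing by repeat number. Correlations of deviations between arrays of the same number lay between -0.05 and 0.14, which with 2 or 3 arrays a group cannot settle it. No batch is given in the labels, so batch and group cannot be told apart. Alternatives were a filter on dim genes (the lowest 40% by mean), median centring, quantile normalization, array weights, a trended robust prior, a fit of only the arrays compared, a block for the repeat number, the mean of all probe sets, and each array left out. Motifs were counted with Python 3.11.15, and plots were drawn with matplotlib 3.10.9.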

Additional observations from a re-analysis of the deposited data

How the results depend on the processing

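The number of members called depended on the processing in the comparisons with LSK cells. For WT LICs against LSK cells it was 1, and 3 with the filter on dim genes, with a trended robust prior and with array weights, 2 with quantile normalization, and 0 with the compared groups alone; leaving out single arrays gave 0 to 1. The repeat number as a block also gave 0, though the labels give no pairing by these numbers. For Ezh2 KO LICs against LSK cells it was 0, and 4 with the dim filter, the trended robust prior and array weights, 1 with median centring and 1 with quantile normalization, 2 with the mean of probe sets, and 0 with the block and without any single array. Between Ezh2 KO and WT LICs it was 0 under every alternative run. The median difference ranged over arrays left out from -0.62 to -0.05 for WT LICs against LSK cells, from -0.41 to 0.087 for Ezh2 KO against WT LICs and from -0.76 to -0.21 for Ezh2 KO LICs against LSK cells. The number of members lower in Ezh2 KO than in WT LICs, an alternative count chosen after seeing the data, was 16 without Ezh2 KO LIC repeat 2. Median centring moved the median of all genes between WT LICs and LSK cells from 0.02 to 0.13.

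For 36 named genes, 49 differences were followed under 654 alternatives: 579 kept direction and side of the threshold, 40 lost a call, 34 gained one and 1 turned, Psmb10 between Ezh2 KO and WT LICs (-0.60 to 0.045 over arrays left out, the latter without Ezh2 KO LIC repeat 2). The calls lost to processing rather than to a left-out array included those of Sp110 against LSK cells under the trended robust prior, the mean of probe sets and the compared groups alone, and of Tor3a under the last. With the repeat number as a block, adjusted p values were 0.0529 for Ifi30 in WT LICs, and 0.0631 for Tor3a, 0.0702 for Slfn2 and 0.0834 for Sp110 in the knockout. Medians by role and the SD without single arrays were added after seeing the data. With 1 knockout array left out, the remaining one was assumed to vary like the other groups. The causes were not tested, and the number of arrays limits all these values.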
